A study of Homo sapiens with 24 samples.

Results

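The genes described here are the amino acid transporters of 7 solute carrier (SLC) families, chosen by name and by a minimum level. A row of the deposited table was taken when its name was a single symbol of the SLC1, SLC3, SLC6, SLC7, SLC36, SLC38 or SLC43 family and its value was at least 10 in at least 3 libraries. Of 42 such rows, 35 met the minimum and are the members, out of 25541 entries in all. They comprise 11 members of SLC6, 7 of SLC7, 6 of SLC1, 6 of SLC38, 2 of SLC3, 2 of SLC36 and 1 of SLC43. The other 7 rows (SLC6A14, SLC7A13, SLC7A14, SLC36A2, SLC38A5, SLC38A8 and SLC38A11) stayed below it.

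Total RNA was sequenced from 2 variants of T47D, a human luminal breast cancer line grown as a monolayer. T47D-co carries the progesterone receptor, and T47D-Y is labelled as receptor null. Each variant was given IFN-alpha at 20 IU/ml or water for 18 h, then R5020, a synthetic progestin that binds the receptor, at 10 nM or its vehicle ethanol (EtOH) for 6 h. The 8 groups, with 3 biological replicates each, were therefore R5020 with IFN, R5020 with water, EtOH with IFN and EtOH with water, in T47D-co and in T47D-Y. All cells were kept in minimum essential medium with 5% serum, insulin and added non-essential amino acids. The variants are separate derivatives of T47D, so the receptor and any other difference between the lines cannot be told apart.

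Cells take up and exchange amino acids through carriers that differ in substrate and driving force. SLC1, SLC6 and SLC38 carriers use the sodium gradient to concentrate glutamate, small neutral amino acids, taurine, creatine or neurotransmitters. SLC7 light chains pair with an SLC3 heavy chain and swap an amino acid inside the cell for another outside, while the cationic carriers of SLC7 work alone and bring in arginine and lysine. SLC36 carriers are driven by protons, often at the lysosome, and SLC43 carriers work by facilitated diffusion. Several of these genes are known targets of ATF4, the transcription factor of the amino acid response, and uptake of leucine and glutamine feeds the growth kinase mTORC1. In breast cancer the SLC7A5 and SLC3A2 heterodimer, which imports large neutral amino acids, and SLC1A5, a glutamine carrier, are among the carriers studied.

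Levels are given as scaled fragments. The deposited values behave as estimated fragments per gene divided by a library factor, and they were brought to 1 scale over the 24 libraries. A fold change is a difference on the log2(scaled fragments + 1) scale, given with its standard error (SE), from a limma fit of the 8 group means to all 20162 entries tested. An entry was called when its p, adjusted over these entries by Benjamini-Hochberg, was under 0.05. All 35 members were tested, of which 17 share their locus in the table with another gene. Levels are not compared between genes, since they are not divided by gene length.

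Depth was 14141314 to 33607497 fragments per library. PGR, the progesterone receptor gene, was at 11814 to 27973 fragments in T47D-co, against 419 to 719 in T47D-Y, which fits the labels, although PGR was not at 0 in T47D-Y. ZBTB16, a progestin target, was at 6191 to 7433 with R5020 against 3.56 to 12.1 with EtOH in T47D-co, and at 21.9 to 38.4 against 1.32 to 7.21 in T47D-Y, over libraries with and without IFN. MX1, an interferon-induced gene, was at 1899 to 2632 with IFN against 141 to 310.5 with water in T47D-co, and at 3667 to 4481 against 125 to 175 in T47D-Y, over R5020 and EtOH libraries. The epithelial genes KRT8, KRT18, KRT19, EPCAM and GATA3 were high in every library. In log2 fold change, untreated T47D-co was lower than T47D-Y in KRT18 (-1.26), KRT8 (-1.09) and EPCAM (-0.39). It was higher in ESR1 (2.12), FOXA1 (0.99) and GATA3 (0.33), while KRT19 was not called. In T47D-co without IFN, R5020 lowered FOXA1 (-1.60), GATA3 (-0.82), ESR1 (-0.78), KRT18 (-0.50) and KRT8 (-0.23), and KRT19 and EPCAM were not called. Of 12 markers of leukocytes, endothelium and stroma, 6 had an entry of their own: PTPRC, CD3E and LYZ stayed under 10 in every library, and the summed level was 656 to 804 with R5020 against 871 to 983 with EtOH in T47D-co and 381 to 444 against 418 to 506 in T47D-Y, with COL1A1 and ACTA2 at 154 or more in every library. In 4 libraries mitochondrial transcripts took 1.02 to 1.15% of fragments, against 3.23 to 4.82% in the other 20. They were EtOH replicate 2 of T47D-co with water, and R5020 replicates 1 and 2 and EtOH replicate 1 of T47D-Y with water. The part of these differences in the results below was not tested, apart from fits without the 4 libraries. In bulk RNA, fewer cells with a transcript and less of it per cell cannot be told apart.

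R5020 in the receptor-positive line was the treatment that moved the transporters. In T47D-co without IFN, 15 of the 35 members rose and 7 fell, and the taurine carrier SLC6A6 had the highest fold change, 3.29. Sodium-driven carriers of small neutral amino acids (SLC38A1, SLC38A2 and SLC1A4), the arginine and lysine carrier SLC7A1 and the cystine carrier SLC7A11 rose with it. Of the plasma membrane glutamate carriers, SLC1A2 and SLC1A3 fell and SLC1A1 rose. The SLC7A5 light chain also fell, while its heavy chain SLC3A2 was not called. R5020 changed much of the transcriptome in these cells: 56.5% of all entries tested were called, 26.6% up and 30.0% down, so that the share of members called, 62.9%, lay close to the background. Of the 35 members, 5 were called with at least a 2-fold rise, against 7.09% of all entries. A 2-fold fall was called for 0 of them, against 8.07% of all entries. The 5 were SLC6A6, SLC7A1, SLC1A1, SLC6A12 and SLC6A3. SLC1A1 shares its locus with other genes, and SLC6A12 and SLC6A3 reached at most 26.1 and 29.4 fragments in T47D-co. The median size of the log2 change was 0.64 for members and 0.35 for all entries, and the median signed change was 0.16 against -0.036.

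**Figure D1:**
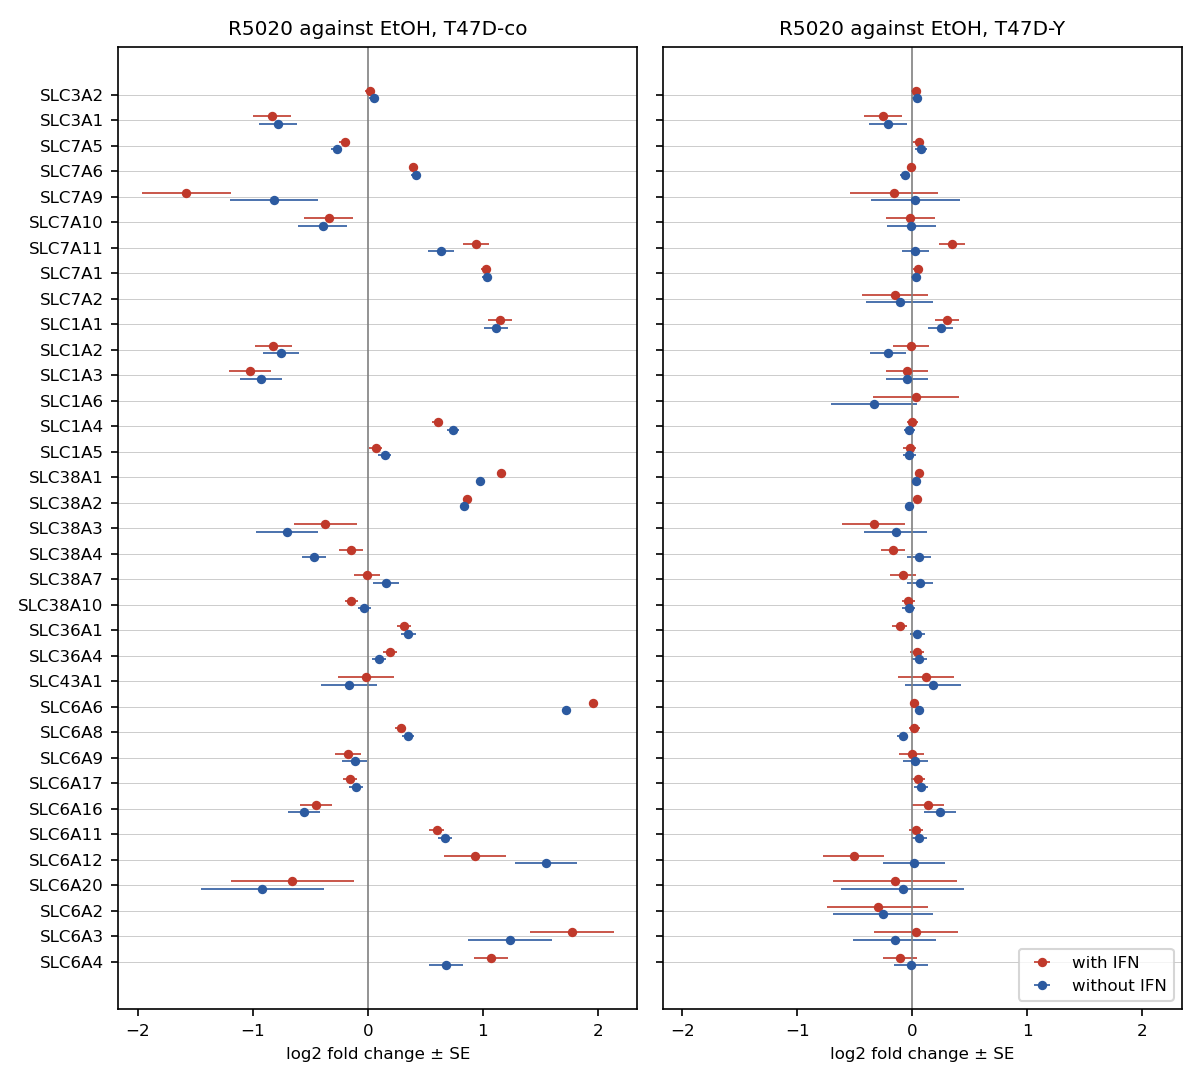
Log2 fold change of each member with R5020 against EtOH in T47D-co (left) and T47D-Y (right), with IFN (red) and without (blue); points are limma estimates over 3 libraries a group and bars are ± 1 SE. In T47D-co the points spread from below -1 to nearly 2, with SLC6A6 highest, whereas in T47D-Y no member was called. SLC7A2, SLC1A6 and SLC6A2 are left out of the T47D-co panel because they stayed under 10 fragments in all 12 libraries.

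SLC6A6 moves taurine and beta-alanine into cells with sodium and chloride (hg19 chr3:14444075-14583588). It had 8968, 9076 and 9137 fragments in the R5020 libraries of T47D-co without IFN, against 2773, 2708 and 2777 with EtOH. With IFN it had 9830.3, 9850.5 and 9899.9 with R5020, against 2519, 2596 and 2523 with EtOH. Every R5020 library stood far above every EtOH library, and replicates of a group lay within a few percent of each other. The log2 fold change was 1.72 ± 0.03 without IFN (adjusted p = 1.5e-24) and 1.95 ± 0.03 with IFN (adjusted p = 9.5e-26). Its locus is shared with GRIP2 and a U6 RNA, and the sum of the entries there gave 1.72 and 1.95.

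Of the other SLC6 carriers, 5 rose with R5020 in T47D-co without IFN and 1 fell. The GABA carrier SLC6A11 rose to 587 ± 23.1 fragments (SD, n = 3), against 368 ± 12.7 with EtOH, and the creatine carrier SLC6A8 to 1097 ± 51.4, against 861 ± 20.7 (log2 fold changes 0.67 ± 0.06 and 0.35 ± 0.05). SLC6A4, which carries serotonin and not an amino acid, had 89.4, 90.4 and 98.9 fragments with R5020 against 54.7, 52.1 and 66.7 with EtOH, and with IFN 103, 109 and 91.4 against 53.9, 47 and 41.9. Its groups did not overlap in either setting, and the log2 fold changes were 0.68 ± 0.15, adjusted p = 0.00037 without IFN and 1.07 ± 0.15, adjusted p = 9.3e-07 with IFN. The betaine carrier SLC6A12 and the dopamine carrier SLC6A3 had log2 fold changes of 1.55 ± 0.27 and 1.23 ± 0.36, at levels of only 24.1 to 26.1 and 18.4 to 29.4 fragments with R5020 against 6.74 to 9.22 and 6.92 to 14.4 with EtOH. The orphan carrier SLC6A16 fell to 138 ± 19.7, against 202 ± 2.74 with EtOH (log2 fold change -0.55 ± 0.14). The glycine carrier SLC6A9 (-0.11 ± 0.11), the neuronal vesicle carrier SLC6A17 (-0.10 ± 0.06), the proline carrier SLC6A20 (-0.92 ± 0.54) and the noradrenaline carrier SLC6A2, at 0 to 2.11 fragments in T47D-co, were not called.

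The SLC38 carriers bring glutamine, alanine and other small neutral amino acids in with sodium. SLC38A1 had 11641, 11119.7 and 11672 fragments with R5020 in T47D-co without IFN, against 5776, 5930.1 and 5763 with EtOH. With IFN the values were 12418, 12357 and 12021 with R5020, against 5469.8, 5421 and 5640.3 with EtOH, so that R5020 about doubled it in both settings with no overlap (log2 fold changes 0.98 ± 0.03, adjusted p = 5.6e-20, and 1.15 ± 0.03, adjusted p = 1.7e-21 with IFN). SLC38A2, the carrier that cells raise when amino acids run short, had 15704, 14929.7 and 14891 with R5020, against 8819, 8154 and 8489.8 with EtOH. It too was separated without overlap, with a log2 fold change of 0.84 ± 0.03, adjusted p = 2.2e-18, and of 0.86 ± 0.03 with IFN. Both genes lie on the same stretch of chromosome 12 as SLC38A4 (hg19 chr12:46576845-46663800, chr12:46751971-46767561 and chr12:47158545-47226191), which did not follow them. SLC38A4 had 166, 159.7 and 203 with R5020 against 217, 261 and 252 with EtOH, lower in every R5020 library (log2 fold change -0.47 ± 0.11, adjusted p = 0.00047). SLC38A3, a glutamine carrier of liver and brain seen here at 15.6 to 40.4 fragments, was called lower at -0.70 ± 0.27, adjusted p = 0.031, a call lost under 6 of 14 alternatives, among them the omission of R5020 replicate 2 or 3 or of EtOH replicate 2 or 3. The lysosomal glutamine carrier SLC38A7 (0.16 ± 0.11) and SLC38A10 (-0.030 ± 0.056) were not called.

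SLC7A1 is the main carrier of arginine and lysine in most cells (hg19 chr13:30083546-30169825). It had 2550.2, 2661 and 2477 fragments with R5020 in T47D-co without IFN, against 1274, 1233 and 1249.7 with EtOH, and with IFN 2407, 2481 and 2527 against 1150.0, 1297 and 1203. The 2 sets of libraries were far apart in both settings, and the log2 fold change was 1.03 ± 0.04, adjusted p = 6.1e-17 without IFN and 1.02 ± 0.04 with IFN. SLC7A2, the other cationic carrier, had 0 to 3.31 fragments in every T47D-co library and gives no fold change there.

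The heterodimer that imports leucine and other large neutral amino acids moved little. SLC7A5, its light chain, had 7638, 7988 and 7793 fragments with R5020 in T47D-co without IFN, against 9465, 9042 and 9746 with EtOH. SLC3A2, the heavy chain, had 2827, 2964 and 3000.0 with R5020, against 2862, 2712 and 2920.2 with EtOH. All R5020 libraries were below all EtOH libraries for SLC7A5, at 0.829 times the EtOH level (log2 fold change -0.27 ± 0.05, adjusted p = 4.1e-05, and -0.49 after quantile normalization), whereas the SLC3A2 groups overlapped. SLC3A2 had a log2 fold change of 0.050 ± 0.042 (95% interval -0.036 to 0.14, adjusted p = 0.33). With IFN the log2 fold changes were -0.20 ± 0.05 for SLC7A5 (adjusted p = 0.0011) and 0.019 ± 0.042 for SLC3A2 (adjusted p = 0.72).

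Other partners of the heavy chains went separate ways. SLC7A11 exports glutamate in exchange for cystine, which feeds glutathione. It had 206, 189 and 193 fragments with R5020 in T47D-co without IFN, against 143, 115 and 121 with EtOH, and with IFN 169.7, 205 and 187 against 104, 98.7 and 88.5. R5020 libraries were higher throughout, with log2 fold changes of 0.64 ± 0.11, adjusted p = 3.2e-05 and, with IFN, 0.94 ± 0.11, adjusted p = 9.7e-08. Its locus is shared with the antisense gene SLC7A11-AS1, and the strand setting of the counting is not given in the sources used here. SLC7A6, which swaps cationic for neutral amino acids, rose to 1654 ± 17.9 with R5020, against 1241 ± 67.7 with EtOH (SD, n = 3 each; log2 fold change 0.42 ± 0.04). SLC3A1, the heavy chain for cystine and cationic amino acid uptake in kidney, fell to 42.2 ± 2.23, against 73.1 ± 2.88 with EtOH (log2 fold change -0.78 ± 0.16, adjusted p = 0.00024, and -0.48 for the sum with PREPL at the same locus). SLC7A9, its light chain, had 9.21, 9.24 and 10.4 with R5020 against 11.6, 18.6 and 25.4 with EtOH, and was called lower only with IFN (-0.81 ± 0.39 without IFN and -1.58 ± 0.39, adjusted p = 0.0010 with it, or -0.93 without R5020 replicate 2). SLC7A10, a carrier of small neutral amino acids including D-serine, was not called (-0.39 ± 0.21).

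**Figure D2:**
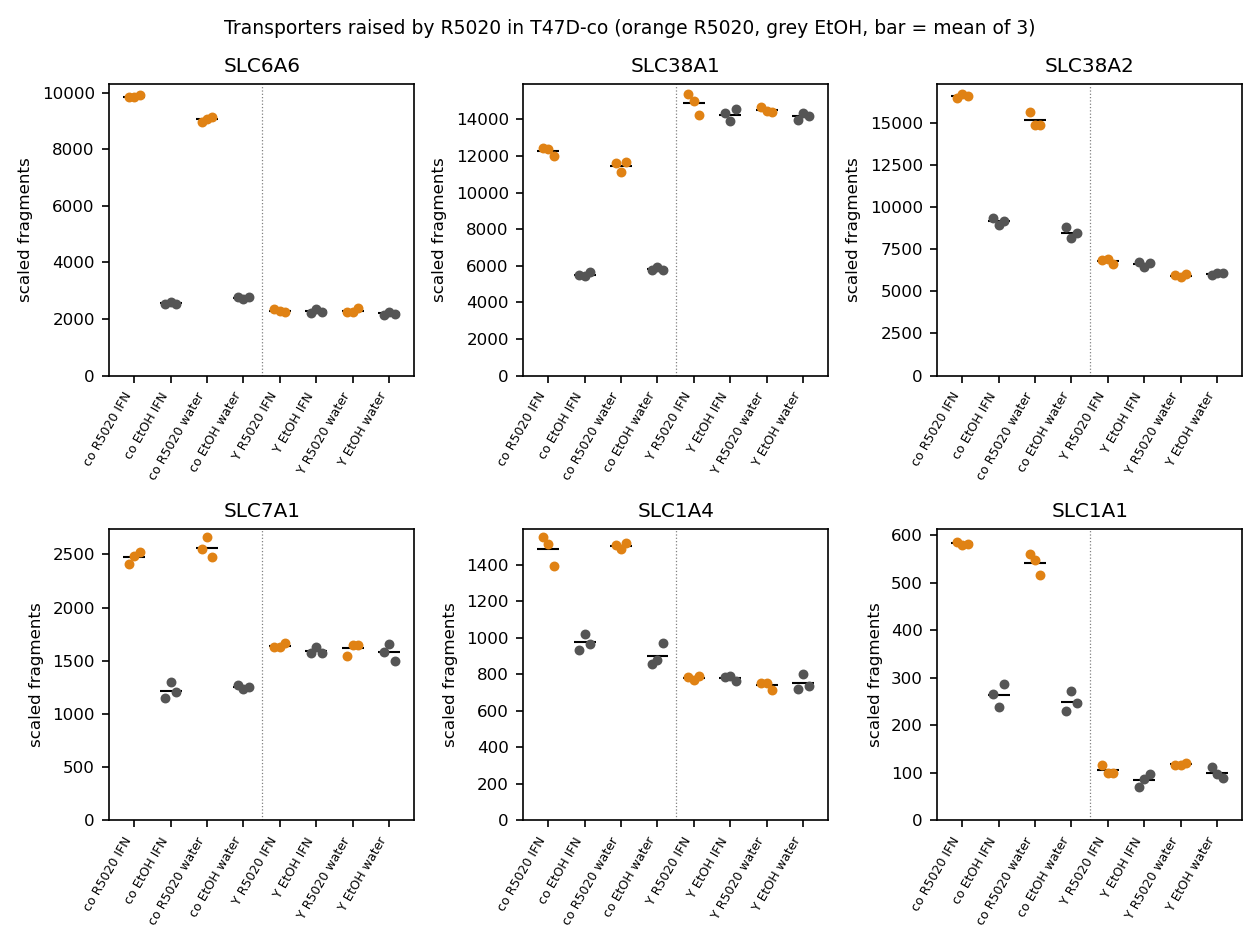
Scaled fragments of 6 transporters in each of the 24 libraries (y axes start at 0; orange points R5020, grey points EtOH, bars the mean of 3), with T47D-co left and T47D-Y right of the dotted line. In T47D-co every orange point lies above every grey point for all 6 genes, as with SLC6A6 at 8968 to 9899.9 against 2519 to 2777.

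The SLC1 family moved in both directions. SLC1A4, an exchanger of alanine, serine and cysteine, rose to 1503 ± 15.5 fragments with R5020, against 901 ± 60.3 with EtOH (SD, n = 3 each; log2 fold change 0.74 ± 0.05, adjusted p = 2.1e-12). SLC1A5, the glutamine exchanger, had 2689, 2700.2 and 2533 with R5020, against 2455, 2361 and 2332 with EtOH in T47D-co without IFN. The groups just failed to overlap, and the log2 fold change of 0.15 ± 0.06, adjusted p = 0.030 lost its call under 8 of 16 alternatives, among them the omission of R5020 replicate 1 or 2 or of EtOH replicate 2 or 3. With IFN it was 0.069 ± 0.057, adjusted p = 0.31. Among the glutamate and aspartate carriers, SLC1A1 had 559.8, 548 and 517 with R5020, against 229.7, 272 and 248 with EtOH, and with IFN 587, 581 and 581 against 267, 238 and 286. These values were well apart (log2 fold changes 1.12 ± 0.11, adjusted p = 1.2e-09, and 1.15 ± 0.11 with IFN), but SLC1A1 shares its locus with PPAPDC2 and SPATA6L, and the sum of the entries there rose by only 0.20 and 0.34.

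SLC1A2 and SLC1A3, the glutamate carriers best known from astrocytes, went down together. SLC1A3 had 39.7, 29.4 and 35.1 fragments with R5020 in T47D-co without IFN, against 55.7, 79.3 and 66.9 with EtOH, and with IFN 37.4, 42.0 and 40.1 against 97.1, 79.6 and 71.2. SLC1A2 had 140.0, 118 and 138 with R5020 without IFN, against 253, 214 and 205 with EtOH. All R5020 libraries were below all EtOH libraries for both genes, with log2 fold changes of -0.93 ± 0.18, adjusted p = 9.3e-05 for SLC1A3 and -0.76 ± 0.16, adjusted p = 0.00020 for SLC1A2, and with IFN of -1.02 ± 0.18 and -0.82 ± 0.16. SLC1A6, a glutamate carrier of Purkinje cells, stayed at 0 to 3.49 fragments in T47D-co.

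Of the proton-driven carriers, SLC36A1, which exports amino acids from lysosomes, rose to 615 ± 41.0 with R5020 against 482 ± 20.0 with EtOH (log2 fold change 0.35 ± 0.06, adjusted p = 4.3e-05). SLC36A4, a carrier of proline and tryptophan, was not called without IFN (0.098 ± 0.063, adjusted p = 0.20) and was called with it (0.19 ± 0.06, adjusted p = 0.011), a call lost without R5020 replicate 2 (0.14). SLC43A1, a facilitated carrier of branched-chain amino acids, was not called (-0.16 ± 0.24 without IFN and -0.014 ± 0.243 with IFN).

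RefSeq promoter windows (GRCh38.p14, 250 bases before to 50 after a transcription start) were available for 26 of the 35 members, 39 windows in all, against 35116 for all genes. SLC6A6, SLC6A2, SLC6A3, SLC6A12, SLC1A2, SLC3A1, SLC7A2, SLC7A11 and SLC38A3 had none. The C/EBP-ATF element TGATGNAA, on either strand, was in 15.4% of the member windows and 3.62% of all windows. It was found in SLC1A4, SLC38A1 and SLC7A1, which rose, in SLC1A5, whose rise was marginal, in SLC3A2, which was not called, and in SLC1A3, which fell. The windows of the 3 that rose clearly and of the 1 that fell are shown 5′ to 3′ on the strand of the gene, with the element in capitals (TTGCATCA is its reverse complement).
SLC1A4 (chr2:64989149-64989448, plus strand): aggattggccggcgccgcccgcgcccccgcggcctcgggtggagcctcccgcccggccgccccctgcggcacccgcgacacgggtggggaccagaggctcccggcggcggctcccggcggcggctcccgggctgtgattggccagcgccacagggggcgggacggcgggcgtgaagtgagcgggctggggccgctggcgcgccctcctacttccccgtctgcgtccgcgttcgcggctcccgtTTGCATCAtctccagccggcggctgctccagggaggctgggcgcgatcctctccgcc
SLC38A1 (chr12:46266467-46266766, minus strand): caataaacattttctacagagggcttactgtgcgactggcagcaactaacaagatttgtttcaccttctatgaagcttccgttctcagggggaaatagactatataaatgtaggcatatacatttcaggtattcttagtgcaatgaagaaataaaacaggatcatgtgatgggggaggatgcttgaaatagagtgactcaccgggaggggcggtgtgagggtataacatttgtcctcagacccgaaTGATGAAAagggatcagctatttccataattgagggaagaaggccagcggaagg
SLC7A1 (chr13:29595639-29595938, minus strand): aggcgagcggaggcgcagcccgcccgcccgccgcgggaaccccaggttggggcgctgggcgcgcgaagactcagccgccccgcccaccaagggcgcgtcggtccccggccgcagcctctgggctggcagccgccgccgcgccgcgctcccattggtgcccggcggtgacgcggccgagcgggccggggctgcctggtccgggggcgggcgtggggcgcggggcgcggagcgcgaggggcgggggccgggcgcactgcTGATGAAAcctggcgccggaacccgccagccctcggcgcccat
SLC1A3 (chr5:36596338-36596637, plus strand): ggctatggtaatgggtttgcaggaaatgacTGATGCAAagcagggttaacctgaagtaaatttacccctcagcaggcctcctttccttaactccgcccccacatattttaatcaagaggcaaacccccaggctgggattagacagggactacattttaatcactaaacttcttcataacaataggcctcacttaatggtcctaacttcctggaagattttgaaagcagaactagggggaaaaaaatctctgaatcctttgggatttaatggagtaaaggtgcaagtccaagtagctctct

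In the windows shown, the element began 7 bases before the start of SLC1A4, 4 before that of SLC38A1, 220 before that of SLC1A3 and 7 after that of SLC7A1. SLC38A1 and SLC1A3 also have windows at other starts, in which the element was not found. Which start these cells use was not tested. A further 9 motifs were searched on both strands. The steroid receptor core ACANNNTGT was in 5.13% of member windows and 5.37% of all windows. The hexamer TGTTCT was in 7.69% and 14.8%, and its looser form TGTNCT in 25.6% and 41.4%. TGATGCAA, a form of the C/EBP-ATF element, was in 7.69% and 0.866%, the AP-1 site TGACTCA in 12.8% and 4.95%, and the cyclic AMP element TGACGTCA in 0 member windows and 1.85% of all. The GC box GGGCGG was in 76.9% and 45%, the E-box CACGTG in 15.4% and 7.26%, and the STAT site TTCNNNGAA in 10.3% and 7.66%. These counts describe the letters of the windows. Windows of the same gene share sequence and are not independent.

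R5020 raised nearly the same transporters when IFN had been given first, while the falls were shared less. In T47D-co with IFN, 15 members rose and 10 fell, or 71.4% of the members where 58.1% of all entries were called, 27.5% up and 30.6% down. The R5020 comparisons with and without IFN share no library, but the fit gives both the same estimate of the spread. Of the 15 members up in each, 14 were shared, 93.3% of either list, with SLC1A5 called only without IFN and SLC36A4 only with it. Of those down, 5 were shared, which is 71.4% of the 7 without IFN and 50% of the 10 with IFN. The same overlap over all entries was not counted, so whether this sharing is particular to the transporters was not tested. SLC38A3 and SLC38A4 were called down only without IFN, and SLC38A10, SLC6A17, SLC7A9, SLC1A6 and SLC7A2 only with it. SLC1A6 and SLC7A2 stayed under 10 fragments in T47D-co, and without them 8 members fell. The calls of SLC38A10 (-0.14 ± 0.06, adjusted p = 0.032) and SLC6A17 (-0.15 ± 0.06, adjusted p = 0.036) with IFN were lost under 5 of 15 and 9 of 16 alternatives, among them the omission of R5020 replicate 1 for either gene.

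The difference between the R5020 effects with and without IFN was tested as an interaction in T47D-co. It called 1.01% of all entries and 3 of the 35 members. SLC6A6 rose more with IFN than without, by 0.23 ± 0.04 on the log2 scale (adjusted p = 0.0066), and SLC38A1 by 0.18 ± 0.04 (adjusted p = 0.033). The SLC38A1 call was lost in 12 of 21 alternatives, and under quantile normalization the SLC6A6 difference was 0.16 and no longer called. SLC7A2 was also called, at 0, 0 and 0 fragments with R5020 and IFN and at most 3.31 in the other T47D-co groups, which is no measurable level. SLC38A4, called only without IFN, had an interaction of 0.32 ± 0.15, adjusted p = 0.30, and SLC7A9, called only with IFN, one of -0.76 ± 0.54, adjusted p = 0.53.

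In T47D-Y, none of the 35 members was called with R5020 by limma, either without IFN, where 0.218% of all entries were called, or with IFN, where 0.298% were. An unadjusted p under 0.05 was reached by 1 of 35 members without IFN and 3 with IFN, against 4.21% and 5.97% of all entries. The 1 without IFN was SLC1A1, with 116, 116 and 120.0 fragments with R5020 against 112, 97.7 and 88.5 with EtOH (0.25 ± 0.11, adjusted p = 1.0). With IFN they were SLC1A1, with 116, 99.0 and 100.3 against 70.5, 87.7 and 98.2 (0.30 ± 0.11, adjusted p = 0.53), SLC7A11, with 104, 108 and 111 against 90.5, 86.7 and 76.9 (0.35 ± 0.11, adjusted p = 0.44), and SLC38A1 (0.060 ± 0.029, adjusted p = 0.82). The R5020 libraries of SLC1A1 and SLC7A11 lay above the EtOH libraries in these 3 comparisons. SLC6A6 had 2249, 2237 and 2382 fragments with R5020, against 2150.3, 2255 and 2174 with EtOH in T47D-Y without IFN, and SLC38A1 had 14667, 14464 and 14380.5 against 13974, 14332 and 14210.4. The SLC6A6 groups overlapped. For SLC38A1 the R5020 libraries were all slightly above the EtOH libraries, by 0.033 ± 0.029, adjusted p = 1.0. SLC7A1 had 1548, 1648 and 1649.7 with R5020 against 1582, 1655 and 1499.6 with EtOH, and SLC38A2 5966, 5852 and 6025 against 5969.8, 6110.0 and 6103, with overlapping groups. Log2 fold changes in T47D-Y without IFN had 95% intervals of -2.9e-05 to 0.12 for SLC6A6, -0.026 to 0.093 for SLC38A1, -0.088 to 0.033 for SLC38A2 and -0.054 to 0.12 for SLC7A1.

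The R5020 effect differed between the lines by a direct test. The interaction of line with R5020 called 19 members without IFN, 14 with a higher R5020 effect in T47D-co and 5 with a lower one, where 44.6% of all entries were called, 21.6% higher and 23.0% lower. With IFN it called 21 members, 14 higher and 7 lower, against 46.0% of all entries, 22.9% higher and 23.1% lower. Of these 7, SLC7A2 rests on 0 to 3.31 fragments in T47D-co. The calls of SLC7A9 and SLC3A1 with IFN were lost under 9 of 20 and 14 of 21 alternatives. The log2 difference of effects without IFN was 1.66 ± 0.04 for SLC6A6, 1.00 ± 0.06 for SLC7A1, 0.95 ± 0.04 for SLC38A1, 0.87 ± 0.04 for SLC38A2 and 0.76 ± 0.07 for SLC1A4 (largest adjusted p of the 5, 1.6e-09). SLC7A5 had a difference of -0.35 ± 0.07, adjusted p = 0.00021 and SLC7A11 of 0.61 ± 0.16, adjusted p = 0.0030. SLC3A1 was called at -0.57 ± 0.23, adjusted p = 0.049, a call lost under 15 of 21 alternatives. SLC1A1 was called at 0.87 ± 0.15, adjusted p = 2.8e-05, but the sum at its locus gave 0.14 and was not called. Without the 4 libraries low in mitochondrial transcripts, the calls of SLC38A4 (-0.35), SLC6A4 (0.54), SLC6A12 (1.39) and SLC6A3 (1.67) were lost. SLC1A5 (0.17 ± 0.08, adjusted p = 0.087) and SLC3A2 (0.012 ± 0.059, adjusted p = 0.90) were not called.

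IFN by itself gave few calls among the transporters. In T47D-co with EtOH, limma called 0 of 35 members against 1.00% of all entries, and voom weights called 1. An unadjusted limma p under 0.05 was reached by 9 of the 35 members, a higher share than the 8.79% of all entries. The difference in share was not tested. The 9 were SLC1A4, SLC7A5, SLC7A11, SLC6A6, SLC6A17, SLC38A1 and SLC38A2, with SLC1A6 and SLC7A2 at under 10 fragments. The cystine exchanger SLC7A11 had 104, 98.7 and 88.5 fragments with IFN against 143, 115 and 121 with water (-0.38 ± 0.11, adjusted p = 0.16). In T47D-Y with EtOH, 2 members were called against 4.44% of all entries: SLC38A2 was higher, with 6755, 6472 and 6666 fragments with IFN against 5969.8, 6110.0 and 6103 with water, and SLC6A8 was lower, with 375, 373 and 363 against 422, 439 and 438. The IFN and water libraries did not overlap for either gene, but the log2 fold changes were small, 0.13 ± 0.03, adjusted p = 0.0089 and -0.23 ± 0.05, adjusted p = 0.0069. The glutamate carrier SLC1A3 had 65.0, 65.2 and 57.8 fragments with IFN against 47.1, 33.8 and 49.8 with water in T47D-Y with EtOH, and 63.9, 52.9 and 65.8 against 34.7, 42.8 and 48.8 with R5020. Its IFN libraries were above its water libraries in both settings, but the log2 fold changes of 0.53 ± 0.18, adjusted p = 0.10, and 0.53 ± 0.18, adjusted p = 0.11 with R5020, were not called. Among R5020 libraries, IFN called SLC38A2 in T47D-Y (0.19 ± 0.03, adjusted p = 9.1e-05; 4.77% of all entries called). In T47D-co with R5020 it called 5 members against 11.3% of all entries, namely SLC38A2 (0.13 ± 0.03), SLC6A6 (0.12 ± 0.03) and SLC38A1 (0.096 ± 0.029) higher, SLC6A17 (-0.26 ± 0.06) lower, and SLC7A2 at near 0 fragments. The SLC38A1 call was also lost under 6 of 15 alternatives, among them quantile normalization and the omission of R5020 water replicate 2 or of R5020 IFN replicate 1 or 2. The deposited values of the 2 IFN states are not on 1 scale, and on the deposited scale SLC38A2, SLC6A6 and SLC38A1 took the opposite sign in each of these comparisons in which they were called. The interaction of line with IFN called 0 of 35 members by limma, against 0.377% of all entries. An unadjusted p under 0.05 was reached there by 5 of the 35, again a higher share than the 7.71% of all entries. They were SLC6A6, SLC6A8, SLC7A5, SLC38A1 and SLC1A6, the last at under 10 fragments in T47D-co. The interaction of R5020 with IFN in T47D-Y called 0 of the entries tested, members included. Of all entries, 3.45% had an unadjusted p under 0.05 there, 0 of them members.

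The lines differed in their transporters before any treatment. In T47D-co with EtOH and water, 14 members were higher and 16 lower than in T47D-Y, where 63.1% of all entries were called, 29.7% higher and 33.4% lower. Given IFN, 12 were higher and 16 lower, against 62.6% of all entries, 29.6% higher and 33.0% lower. SLC7A2, SLC1A6 and SLC6A2 reached 10 fragments in T47D-Y libraries only, which fixes their direction. Over the 32 members that reached it in both lines, 14 were higher and 13 lower untreated, and 12 and 13 with IFN. Both subunits of the large neutral amino acid exchanger were higher in T47D-co. Of the 10 SLC6 members that reached the minimum in both lines, 7 were called lower and 3 higher in T47D-co, the call of SLC6A3 (-0.95 ± 0.36, adjusted p = 0.026) being lost under 6 of 14 alternatives, among them the omission of T47D-co replicate 2 or 3 or of T47D-Y replicate 1 or 2.

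SLC7A5 had 9465, 9042 and 9746 fragments in untreated T47D-co, against 1711, 1667 and 1625 in untreated T47D-Y (hg19 chr16:87863628-87903094). SLC3A2 had 2862, 2712 and 2920.2 in T47D-co, against 1884, 1830.4 and 1801 in T47D-Y. No T47D-co library fell into the T47D-Y range for either, and SLC7A5 was 5.64-fold and SLC3A2 1.54-fold higher in T47D-co (log2 fold changes 2.50 ± 0.05, adjusted p = 1.2e-23, and 0.62 ± 0.04, adjusted p = 1.1e-12). On the deposited scale, which differs between the lines, the SLC3A2 value was 0.39. SLC3A1 was higher as well, at 71.3 to 76.4 against 37.3 to 41.5 untreated and 76.5 to 81.2 against 30.3 to 36.6 with IFN (0.88 ± 0.16 and 1.20 ± 0.16, or 0.50 and 0.52 for the sum at its locus). SLC7A11 had 143, 115 and 121 in T47D-co and 89.4, 97.8 and 120.2 in T47D-Y, which overlap. Its call of 0.30 ± 0.11, adjusted p = 0.023 was lost under 6 of 16 alternatives, including the omission of T47D-co replicate 1 or of T47D-Y replicate 1 or 2, and with IFN the value was 0.19 ± 0.11, adjusted p = 0.15.

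**Figure D3:**
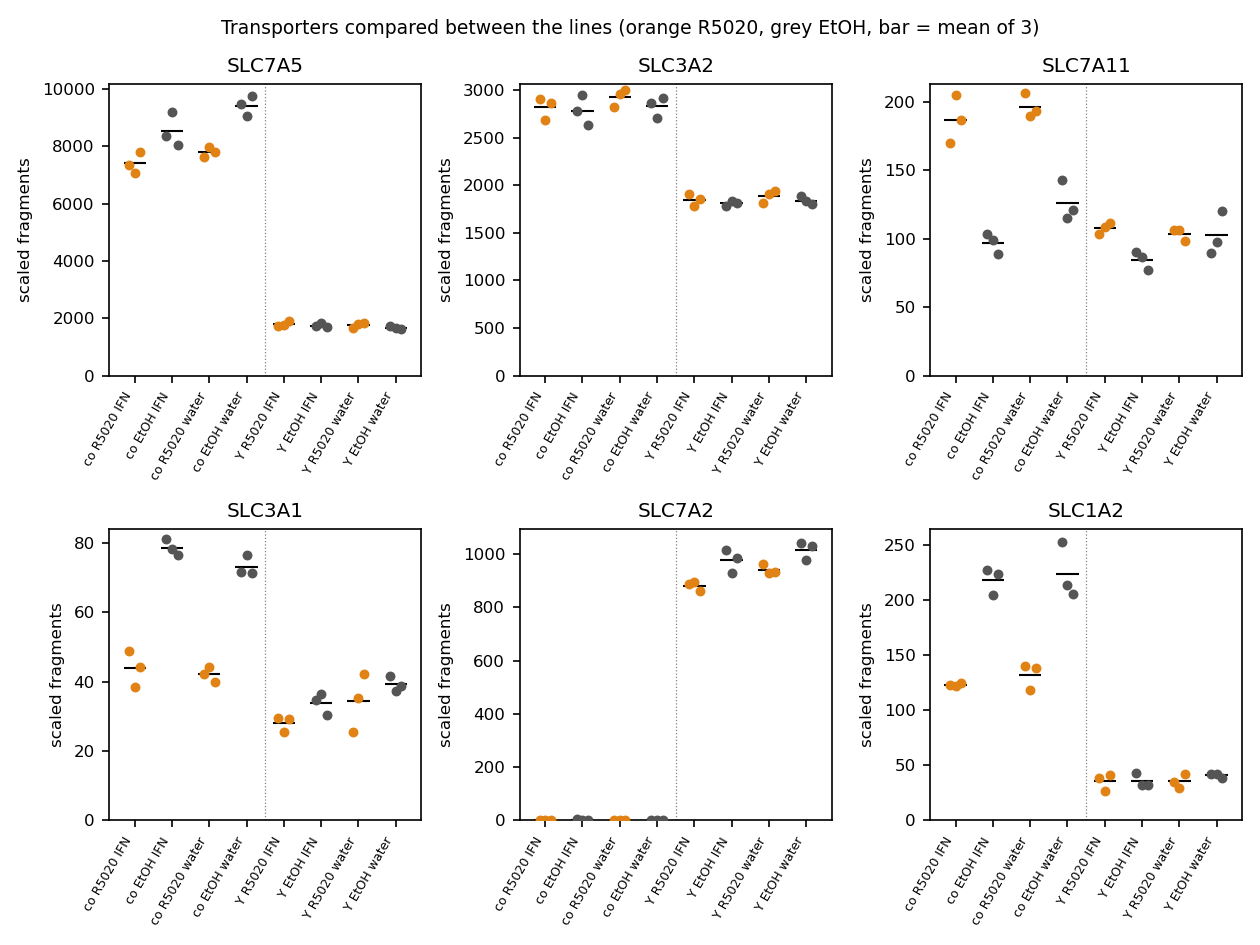
Scaled fragments of 6 transporters in each of the 24 libraries (y axes start at 0; orange points R5020, grey points EtOH, bars the mean of 3), with T47D-co left and T47D-Y right of the dotted line. SLC7A5 lies at 7074 to 9746 in T47D-co against 1625 to 1919 in T47D-Y, SLC7A2 is near 0 in T47D-co, and SLC1A2 and SLC3A1 are higher with EtOH than with R5020 in T47D-co.

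Among SLC1 members, SLC1A2 had 253, 214 and 205 fragments in untreated T47D-co, against 42.0, 42.0 and 38.3 in T47D-Y. SLC1A1 had 229.7, 272 and 248 in T47D-co, against 112, 97.7 and 88.5 in T47D-Y. Both were separated by more than the spread of replicates, with log2 fold changes of 2.42 ± 0.16, adjusted p = 6.6e-13 for SLC1A2 and 1.32 ± 0.11, adjusted p = 3.7e-11 for SLC1A1, the SLC1A1 value being 0.47 for the sum of entries at its locus. SLC1A3 (0.62 ± 0.18) and SLC1A4 (0.26 ± 0.05) were higher and SLC1A5 (-0.21 ± 0.06) was lower, by smaller amounts that lost their calls on the deposited scale or, for SLC1A5, on summing its locus.

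Others higher in T47D-co were SLC6A16, with 201, 200.0 and 205 fragments in untreated T47D-co against 76.1, 61.3 and 79.8 in T47D-Y, and SLC43A1, with 59.7, 47.1 and 66.9 against 21.5, 26.9 and 19.2. The creatine carrier SLC6A8 had 852, 847 and 885 in T47D-co, against 422, 439 and 438 in T47D-Y. All 3 were apart without overlap, with log2 fold changes of 1.48 ± 0.14, 1.32 ± 0.24 and 0.99 ± 0.05 (largest adjusted p 3.8e-05), and of 1.28 ± 0.14, 1.01 ± 0.24 and 1.16 ± 0.05 with IFN.

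SLC38A1 was lower in T47D-co. It had 5776, 5930.1 and 5763 fragments in untreated T47D-co, against 13974, 14332 and 14210.4 in T47D-Y, a log2 fold change of -1.28 ± 0.03, adjusted p = 1.5e-22. With R5020 it reached 11119.7 to 12418 in T47D-co, still below the 14233 to 15412 of R5020-treated T47D-Y. SLC38A2 went the other way, at 8819, 8154 and 8489.8 in untreated T47D-co against 5969.8, 6110.0 and 6103 in T47D-Y (0.49 ± 0.03, or 0.25 on the deposited scale). SLC7A1 was lower in untreated T47D-co, at 1274, 1233 and 1249.7 against 1582, 1655 and 1499.6 (-0.33 ± 0.04, or -0.57 on the deposited scale), but with R5020 it stood above T47D-Y, at 2477 to 2661 against 1548 to 1649.7. SLC6A17 had 228, 265 and 224 against 863, 869 and 826, and SLC38A7 128, 98.5 and 112 against 284, 264 and 227. Each was lower in every T47D-co library, with log2 fold changes of -1.84 ± 0.06, adjusted p = 8.7e-19 and -1.19 ± 0.11, adjusted p = 1.1e-09. SLC7A6 (-0.55 ± 0.04), SLC6A11 (-0.89 ± 0.06) and SLC6A9 (-0.58 ± 0.11, or -0.30 for the sum at its locus and -0.35 without the 4 libraries) were lower as well.

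SLC7A2, SLC1A6 and SLC6A2 met the minimum only through T47D-Y, and a lower level in T47D-co follows from that choice. Their values describe it. The cationic carrier SLC7A2 had 1.93, 2.14 and 0 fragments in untreated T47D-co, against 1042, 978 and 1030.2 in T47D-Y. Over the 3 libraries of each this was 5 unscaled fragments in T47D-co against 3137 in T47D-Y, a scaled T47D-Y over T47D-co ratio of 674 (95% counting interval 288 to 2077). In the groups given R5020 and IFN, T47D-co had 0 and T47D-Y 2210 unscaled fragments, so SLC7A2 was lower in T47D-co by at least 639-fold at the lower end of the 95% counting interval, and by 787-fold with 3 fragments over the group as the floor. The ratio of T47D-Y over T47D-co was 397 (interval 192 to 987) with EtOH and IFN and 478 (interval 219 to 1302) with R5020 and water. SLC1A6 had 3 unscaled fragments in untreated T47D-co against 310 in T47D-Y, a scaled ratio of T47D-Y over T47D-co of 111 (interval 37.6 to 541), and SLC6A2 had 3 against 59, a ratio of 21.1 (interval 6.88 to 105). Over the other 3 pairs of groups the ratios were 34.9, 40.1 and 117 for SLC1A6 and 12.1, 13.1 and 33.8 for SLC6A2. These intervals cover counting error only. SLC6A20 (4.81, 12.1 and 4.61 against 43.8, 50.6 and 51.1) and SLC6A12 (6.74, 7.86 and 9.22 against 34.9, 38.4 and 28.8) were lower in T47D-co at low levels.

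**Figure D4:**
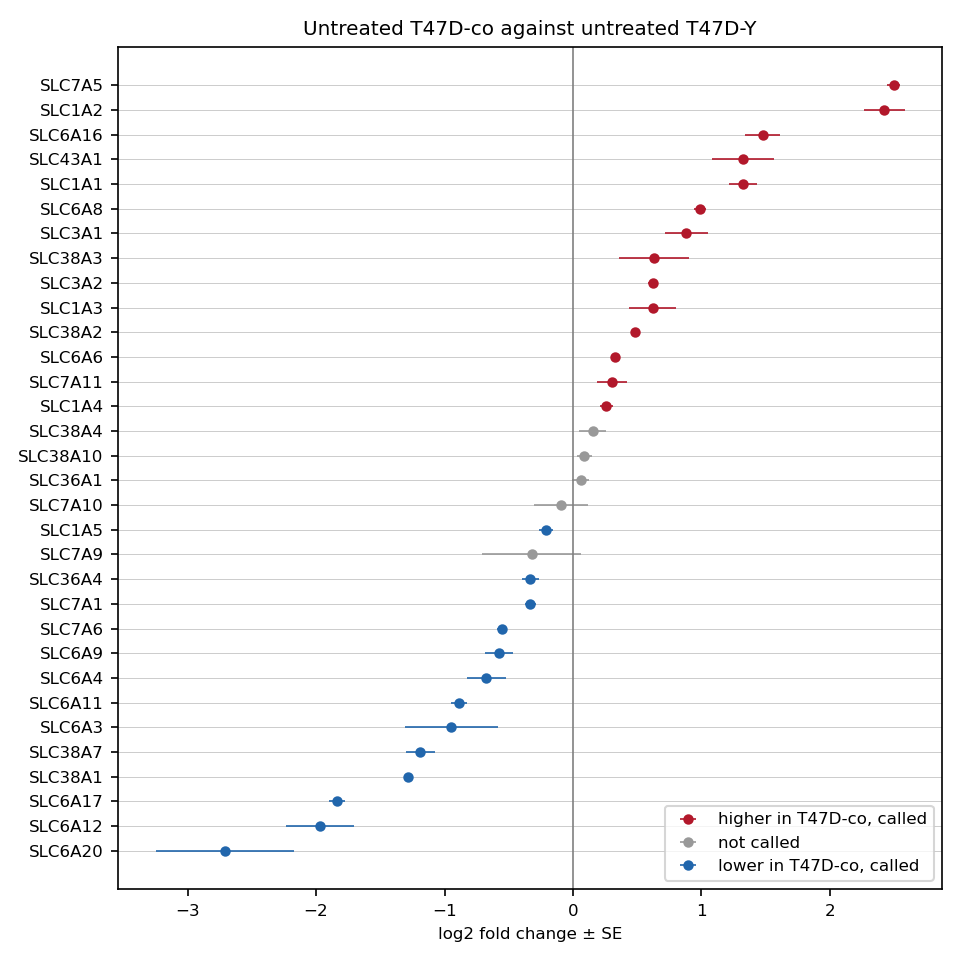
Log2 fold change ± SE of 32 members in untreated T47D-co against untreated T47D-Y, 3 libraries each, ordered by size; red points were called higher in T47D-co, blue lower and grey not called. The order runs from SLC7A5 at 2.50 to SLC6A20 at -2.71, and SLC7A2, SLC1A6 and SLC6A2 are left out as they stayed under 10 fragments in T47D-co.

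Genes around the transporters were followed in lists, whose counts stand beside the background of 56.5% called. With R5020 in T47D-co without IFN, 7 of 14 tested carriers of amino acids outside the 7 families rose and 4 fell. SLC25A18, a mitochondrial glutamate carrier, had 530.3, 542 and 589.7 fragments with R5020 against 40.4, 44.3 and 39.9 with EtOH. Its groups lay far apart, with a log2 fold change of 3.71 ± 0.17, and that of SLC25A15, which carries ornithine into mitochondria, was 1.16 ± 0.09. SLC16A10, a carrier of aromatic amino acids, rose by 0.92 ± 0.09 on the same scale, and CTNS, the cystine exporter of lysosomes, was lower (-0.41 ± 0.06). Of 32 tested genes of the amino acid response and ATF4, 17 rose and 7 fell. CHAC1, which degrades glutathione, rose by 2.98 ± 0.30, with 58.0, 57.1 and 59.8 fragments against 4.81, 7.14 and 8.07, and CEBPG, a partner of ATF4, by 1.51 ± 0.06. PSPH, of serine synthesis, was lower (-1.07 ± 0.04), as was STC2 (-1.01 ± 0.06). ATF4 itself was at 0.20 ± 0.04, adjusted p = 0.00056, while ASNS, the asparagine synthetase often used to read out ATF4, was not called (-0.17 ± 0.10, adjusted p = 0.18).

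Of 27 tested genes through which mTORC1 senses amino acids, 10 rose and 5 fell. RRAGD (1.10 ± 0.13) and RRAGC (0.77 ± 0.06), Rag GTPases, rose, as did FNIP2 (1.03 ± 0.05), a folliculin partner, and TFEB (0.98 ± 0.13), the transcription factor of lysosomal genes. Of 25 tested amino acid enzymes, 8 rose and 11 fell. GLUL, glutamine synthetase, had 17015, 17156 and 17368 fragments with R5020 against 1497, 1517 and 1514 with EtOH. It rose by 3.51 ± 0.03 and MAT2A, which makes S-adenosylmethionine, by 1.83 ± 0.03. The tryptophan-degrading enzymes TDO2 (-1.55 ± 0.50) and KYNU (-1.40 ± 0.04) were lower. GLUL was the 1 gene of the 4 lists called in T47D-Y with R5020, at 0.31 ± 0.03 without IFN and 0.34 ± 0.03 with IFN. Of all entries, 0.218% and 0.298% were called in these comparisons. The line by R5020 interaction for GLUL without IFN was 3.20 ± 0.04, adjusted p = 1.9e-26. With IFN, where 58.1% of all entries were called, R5020 in T47D-co gave 7 up and 4 down among the other carriers, 17 and 8 among the amino acid response genes, 10 and 11 among the mTORC1 genes and 6 and 12 among the enzymes.

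The same lists differed between the untreated lines, where 63.1% of all entries were called. In T47D-co, 6 of the other carriers were higher and 5 lower, with SFXN3, a mitochondrial serine carrier, at 1.52 ± 0.06 and SLC15A4, a lysosomal histidine and peptide carrier, at -0.70 ± 0.05. Of the amino acid response genes 16 were higher and 10 lower. PSAT1, an enzyme of serine synthesis, had 2.89, 1.43 and 4.61 fragments in T47D-co, against 377, 406 and 399 in T47D-Y. In log2 fold change, STC2 was at 4.30 ± 0.06 and NUPR1, a stress-induced transcription cofactor, at 3.86 ± 0.11. Of the mTORC1 genes 15 were higher and 7 lower, with TFEB at 1.82 ± 0.13 and RRAGD at -1.20 ± 0.13. Of the enzymes 10 were higher and 9 lower. TDO2 had 142, 111 and 103 fragments in T47D-co, against 3.17, 2.15 and 1.17e-05 in T47D-Y. AADAT, which transaminates kynurenine and aminoadipate, had 0, 0 and 1.15 in T47D-co, against 111, 109 and 139 in T47D-Y. TDO2 was thus near 0 in T47D-Y, and AADAT and PSAT1 in T47D-co, whereas KYNU (2.64 ± 0.04) was measured in both. IFN without R5020 called 1 gene of the 4 lists in T47D-co, where 1.00% of all entries were called. This was GCLM (-0.39 ± 0.08), a subunit of the enzyme for glutathione synthesis. In T47D-Y, where 4.44% of all entries were called, it called KYNU (0.21 ± 0.04) and DDIT4, an mTORC1 inhibitor (-0.28 ± 0.07).

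**Figure D5:**
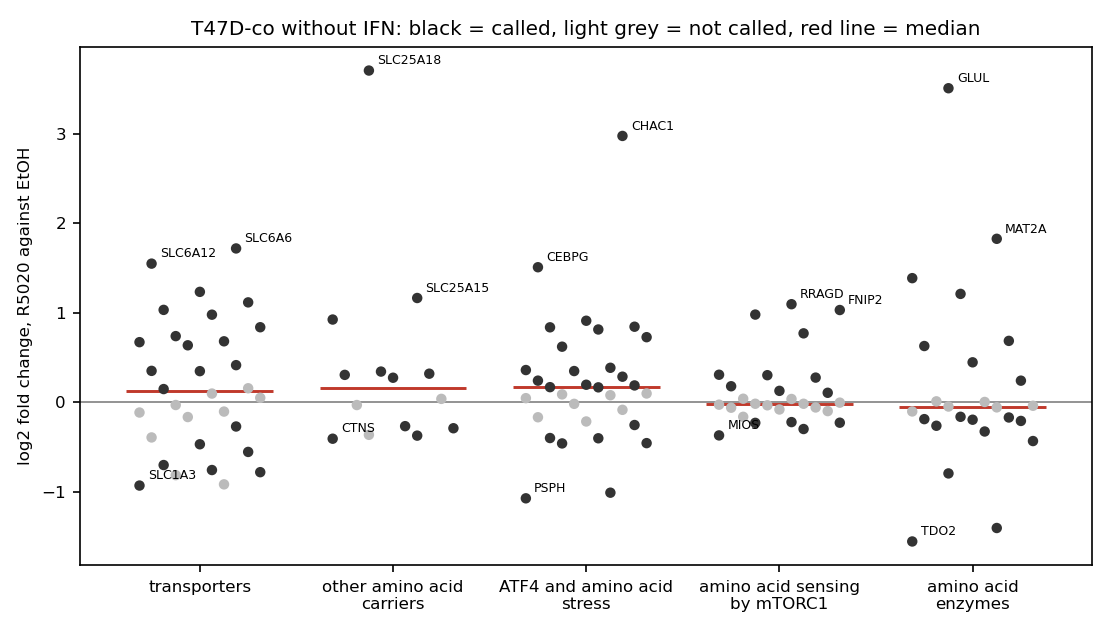
Log2 fold change with R5020 against EtOH in T47D-co without IFN for the transporters and 4 related gene lists (1 point per tested gene; black called, grey not called; red line the median; SLC7A2, SLC1A6 and SLC6A2 left out). SLC25A18 at 3.71, GLUL at 3.51 and CHAC1 at 2.98 stand above every transporter, while the medians of the 4 lists lie between -0.057 and 0.17.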

How the data were processed

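Total RNA of 24 libraries, extracted with Trizol per the labels' protocols, was sequenced on an instrument labelled Illumina MiSeq. Per the submitters' processing notes, TopHat2 2.0.12 and Cufflinks 2.2.1 were used with GRCh37 (hg19). The strand setting is not given in the sources used here. The deposited table holds 25541 entries by 24 libraries, with no unit named per the file headers, so the deposited values were treated as a signal. They are whole multiples of a library-specific step (0.637 to 1.36) for 97.4 to 98.6% of values of genes alone at their locus, to a tolerance of 0.05 of a step, but for only 60.1 to 63.4% of all values, so no count test was run. These steps average about 1 within each of 4 blocks of 6 libraries (line by IFN). Each library was multiplied back to fragments and divided by 1 factor for all 24 libraries, the median of its ratios to the geometric mean over 14201 entries averaging at least 50. R5020 is compared within a block, IFN and line across blocks.

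Entries with at least 10 scaled fragments in 3 libraries were tested, 20162 in all, leaving out 25 entries under 10 repeated symbols. R 4.3.3 and limma 3.58.1 (8 group means, variance trend, 16 residual and 8.05 prior degrees of freedom) gave 15 comparisons on log2(scaled fragments + 1), which understates changes of low genes, with two-sided p adjusted within each comparison only. In simulated data for R5020 in T47D-co without IFN, 100 of 20162 genes were changed by 1 and 100 by 0.5 on the log2 scale. All of these averaged at least 50, and the library factors were taken as known. The fit recovered 95% and 80% of them, with 6.42% of its calls false. The simulation does not cover members at lower levels, the estimation of the factors, or a contrast in which 56.5% of entries are called. Of the members, 17 share their locus with another gene. Members called with at least a 2-fold change and a group mean of at least 50, and 6 members of general interest (SLC7A5, SLC3A2, SLC7A11, SLC1A5, SLC38A2 and SLC7A1), are given library by library, with some further members. Up to 4 called genes per related list are named by size, besides ATF4 and ASNS, chosen after their values were seen. The members, lists and naming rule were chosen with earlier results of these data known. Replicates are biological per the labels.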

Additional observations from a re-analysis of the deposited data

Results flagged for a closer look

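Results are listed here because an effect differed between groups by a direct test. The R5020 effect differed between T47D-co and T47D-Y for 19 of the 35 members without IFN and for 21 with IFN. Of all entries, 44.6% and 46.0% were called by these interactions. For SLC6A6 the log2 difference of effects was 1.66 without IFN and 1.94 with IFN. With IFN it was 1.09 for SLC38A1 and 1.18 for SLC6A4. SLC7A2 had a difference of -1.64 with IFN, which rests on 0 to 3.31 fragments in the T47D-co libraries.

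The R5020 effect in T47D-co differed with and without IFN for 3 members, where 1.01% of all entries were called. The log2 difference was 0.23 for SLC6A6 and 0.18 for SLC38A1. It was -2.25 for SLC7A2, on the same near-empty libraries. The R5020 libraries of SLC6A6 had 9830.3, 9850.5 and 9899.9 fragments with IFN and 8968, 9076 and 9137 without, and the EtOH libraries 2519, 2596 and 2523 with IFN and 2773, 2708 and 2777 without.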

How the results depend on the processing

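Alternatives were the deposited scale per block, quantile normalization, a pseudocount of 5, no filter, a mean of at least 50, voom weights, the contrast's libraries alone, leaving out the 4 libraries with few mitochondrial fragments, the sum of entries at a shared locus, a replicate block, and each library left out in turn. The counts of members called stayed within 1.5 times of the reported value for R5020 in either line, for the line differences and for the line by R5020 interactions. Comparisons of IFN moved, and the cause was not tested beyond the scale itself, which shifts the blocks by 0.0499 (T47D-co water), -0.134 (T47D-co IFN), 0.273 (T47D-Y water) and -0.207 (T47D-Y IFN) on the log2 scale. On the deposited scale, IFN called 16 members in T47D-co with EtOH, 25 in T47D-Y with EtOH, 15 in T47D-co with R5020 and 26 in T47D-Y with R5020, and the line by IFN interaction 15. There SLC38A2 was at -0.35 in T47D-Y with EtOH, -0.29 in T47D-Y with R5020 and -0.055 in T47D-co with R5020, SLC6A6 at -0.066 and SLC38A1 at -0.092 in T47D-co with R5020. Quantile normalization called 1 member for IFN in T47D-co with EtOH, 3 with R5020 and 1 for the R5020 by IFN interaction in T47D-co. Voom weights called 1 for IFN in T47D-co with EtOH. The contrast's libraries alone called 1 for IFN in T47D-Y with EtOH, 2 for IFN in T47D-co with R5020 and 1 for the R5020 by IFN interaction in T47D-co. Without the 4 libraries, IFN called 1 in T47D-Y with EtOH. No count under an alternative, here or in the next paragraph, is set beside the share of all entries called under it. A change of scale shifts every entry of a block alike. The counts therefore show how far a call depends on the processing, and not how the members compare with other genes.

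With 1 library left out, counts ranged from 20 to 24 for R5020 in T47D-co without IFN, 22 to 25 with IFN, 27 to 29 for the untreated line difference, 27 to 28 with IFN, 17 to 19 and 19 to 22 for the line by R5020 interaction without and with IFN, and 2 to 3 for R5020 by IFN in T47D-co. For IFN they ranged from 0 to 1 in T47D-co with EtOH (1 without EtOH water replicate 1 or EtOH IFN replicate 2), 1 to 2 in T47D-Y with EtOH (1 without EtOH water replicate 1 or EtOH IFN replicate 1) and 4 to 5 in T47D-co with R5020. Requiring a mean of 50 left 18 and 20 called for R5020 in T47D-co without and with IFN and 22 for the untreated line difference, since fewer members were tested. Of the single-member values, 2504 kept direction and side of the threshold, 143 kept direction and lost the call, and 5 turned, as given above. Replicate numbers do not pair the samples: deviations of same-numbered libraries correlated at -0.000563 on average (range -0.0838 to 0.0682), and the replicate block changed 1 count, the line by R5020 interaction with IFN, to 20 against 21. Depth limits members under about 10 fragments, such as SLC7A2, SLC1A6 and SLC6A2 in T47D-co.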

Other observations

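A further 7 entries carry an amino acid transporter symbol merged with other genes and were not counted as members. With R5020 in T47D-co, the entry of SLC7A8 and a U6 RNA, where SLC7A8 is another light chain for neutral amino acids, had a log2 fold change of 0.45 ± 0.05, adjusted p = 3.3e-08 without IFN and 0.47 ± 0.05, adjusted p = 1.7e-08 with IFN. It was higher in untreated T47D-co than in T47D-Y by 0.73 ± 0.05. The entry of SLC43A2 and a snoU13 RNA was at 0.29 ± 0.09, adjusted p = 0.0049 with R5020 without IFN and 0.094 ± 0.085, adjusted p = 0.36 with IFN. The entry of SLC38A9, a lysosomal arginine sensor of mTORC1, and a neighbouring gene was not called with R5020 without IFN (0.065 ± 0.058) and was higher in untreated T47D-co by 0.56 ± 0.06, adjusted p = 4.5e-09.

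The entry that joins SLC38A6 with MNAT1 was at -0.13 ± 0.04, adjusted p = 0.0025 with R5020 in T47D-co without IFN and 0.094 ± 0.036, adjusted p = 0.029 with IFN; the difference between these effects was not tested. The entry of SLC7A7 had means of 8.58 to 14.8 fragments over the 8 groups and was called in none of the comparisons fitted to it. In none of these entries can the share of the transporter be told apart from that of its neighbour.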
